A study of Mus musculus with 8 samples.

Results

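PU.1 is a transcription factor of the ETS family on which myeloid cells depend. Its binding was examined around 7 leukocyte integrin genes in the mouse acute myeloid leukaemia line AML246. The genes were Itgam, Itgax, Itgad, Itgal, Itgb2, Itgb7 and Itga4, out of 21887 protein-coding genes. They were chosen as a gene family, by name, with earlier results of these data known. A called site was assigned to a gene when its summit fell between 10 kb before and 10 kb past the gene body. The 7 windows covered 409.1 kb and held 137 sites, after summits of the different libraries within 100 bp were merged, out of 246675 in the series. No site lay in more than 1 of the windows.

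Chromatin immunoprecipitation and sequencing (ChIP-seq) of PU.1 gave 1 library per time point. All came from the same line, grown in medium with IL-3 and sorted for viable cells before the immunoprecipitation. The restoration series held the untreated library (Day 0) and libraries after 4, 8 and 12 days of doxycycline (Dox, 0.1 ug/mL), which restored PU.1, and Dox was withdrawn at day 12. A further 3 libraries carried knockdown in the title, as Day 12- 4, Day 12- 8 and Day 12- 12. The treatment labels disagree with the titles: for Day 12- 4 the label gave 12 days of Dox and a sort for Cd11b-high cells, for Day 12- 8 it gave 4 days off Dox, and for Day 12- 12 it gave 8 days off Dox. These 3 are called by their titles. The eighth sample, with a label of 12 days off Dox, is not used here. Itgam encodes Cd11b itself, so the sort named for Day 12- 4 would select cells by the product of one of the genes described.

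With 1 library a time point there was no replicate error to set a difference against, and no test was possible. The full lists held from 8043 sites (Day 0) to 148415 (titled Day 12- 12), and sequencing depth was not given in the sources used here. The score of a site is the authors' own and is read as −log10 of its q-value. Scores rise with depth and depend on the control, so sites may be ranked within a library, while a score that differs between libraries is no measure of altered binding. A missing call was not read as absence of binding.

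Integrins are adhesion receptors made of an alpha and a beta chain, which pair before they reach the cell surface. Itgb2 encodes the beta-2 chain (CD18), the shared partner of the alpha chains encoded by Itgal (CD11a, forming LFA-1), Itgam (CD11b, forming Mac-1, or complement receptor 3), Itgax (CD11c) and Itgad (CD11d). Itga4 encodes the alpha-4 chain (CD49d), which pairs with beta-7, encoded by Itgb7, or with beta-1, and binds VCAM-1 and MAdCAM-1. Beta-2 integrins hold leukocytes to endothelium and serve phagocytosis, and Itgam and Itgax are widely used as myeloid markers.

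RefSeq promoter sequences (GRCm38.p6, the same coordinates as mm10) were present for 4 of the 7 genes, Itgam, Itgax, Itgb7 and Itga4. They run from 250 bases before the annotated transcription start to 50 after it. The 3 printed here are those with a summit of more than 1 library within 100 bp of the annotated start, or, for Itga4, with every site of the gene near it. Each is written 5′ to 3′ on the strand of its gene. Capitals mark GGAA, the core letters of ETS sites, read as TTCC on the other strand, and GAGGAAGT, a longer core of PU.1-type sites, read as ACTTCCTC, which contains the GGAA letters.
Itgb7 (chr15:102231886-102232185, minus strand): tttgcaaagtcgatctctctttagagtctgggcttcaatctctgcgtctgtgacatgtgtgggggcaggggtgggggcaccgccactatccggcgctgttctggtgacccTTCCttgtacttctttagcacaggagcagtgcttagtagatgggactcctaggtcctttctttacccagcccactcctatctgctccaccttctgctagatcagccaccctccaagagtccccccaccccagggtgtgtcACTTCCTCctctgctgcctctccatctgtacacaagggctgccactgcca
Itgam (chr7:128062390-128062689, plus strand): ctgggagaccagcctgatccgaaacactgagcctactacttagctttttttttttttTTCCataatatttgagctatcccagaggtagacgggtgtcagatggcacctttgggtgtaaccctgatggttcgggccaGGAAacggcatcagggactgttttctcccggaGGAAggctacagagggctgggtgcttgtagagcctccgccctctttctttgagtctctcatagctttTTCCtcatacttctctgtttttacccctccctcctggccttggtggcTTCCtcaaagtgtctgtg
Itga4 (chr2:79255176-79255475, plus strand): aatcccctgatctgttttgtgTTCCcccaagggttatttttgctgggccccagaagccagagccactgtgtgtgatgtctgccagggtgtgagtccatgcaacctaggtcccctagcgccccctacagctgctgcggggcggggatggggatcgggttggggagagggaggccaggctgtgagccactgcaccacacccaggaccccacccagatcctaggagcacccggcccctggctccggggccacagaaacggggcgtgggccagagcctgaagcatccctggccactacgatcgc

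The Itgb7 promoter was the only one of the 4 to hold GAGGAAGT, once, on the strand opposite to the gene (chr15:102231928-102231935). The summit called there lay at 102231935 at Day 4, at 102231937 at Day 8 and Day 12, at 102231928 in the library titled Day 12- 4 and at 102231950 in Day 12- 12. These summits lay within 0 to 15 bp of the 8 letters and of the annotated start, which is position 102231935. The gene body used for the windows runs on to 102233405, so this annotated start lies inside it. GAGGAAGT was found on either strand in 3.13% of 21263 protein-coding promoters of the same length. Among promoters that held a summit, the share ranged from 4.22% in the library titled Day 12- 8 to 13.0% in Day 12- 4.

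The Itgam promoter held GGAA letters 5 times and no GAGGAAGT. The Day 4 summit there (128062679) lay 39 bp past the start and 4 bp from the nearest GGAA, and the Day 12 summit (128062698) lay 58 bp past the start, just outside the printed sequence. The Itgax promoter held GGAA 4 times and a single summit of score 3.22, at Day 4. The Itga4 promoter held GGAA once and no summit. The nearest summit to it, at Day 12, lay 55 bp past the start (79255481), and those at Day 4 and Day 8 lay 575 and 553 bp upstream of it. GGAA alone was found in 95.7% of protein-coding promoters, so its presence sets none of these genes apart.

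In the untreated cells 1 of the 7 genes had a site, Itgb7, where 36.8% of all protein-coding genes did. At Day 4, Day 8 and Day 12 all 7 genes had a site, against 69.8, 61.7 and 77.1% of protein-coding genes. Of the titled libraries, Day 12- 4 had a site at 5 genes (34.8% of protein-coding genes), Day 12- 8 at 4 (61.8%) and Day 12- 12 at 7 (78.9%). A site at Day 12 without any at Day 0 was found for 6 of the 7 genes, as for 42.1% of protein-coding genes and 45.6% of those of similar length. In all 5 of Day 4, Day 8, Day 12, Day 12- 4 and Day 12- 12, 5 of the 7 genes had a site, against 32.7% of protein-coding genes. Genes of similar length were the 7606 between 17.4 and 77.7 kb, the range of the integrin genes' own lengths. Among them the shares were 41.8, 78.2, 70.9 and 85.9% at Days 0, 4, 8 and 12, and 38.7, 69.2 and 85.7% in the titled libraries.

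Because the lists differ in length, each was also cut to the 8043 sites with the highest scores. All 7 genes still had a site at Day 4, where 25.5% of protein-coding genes did. The count was 4 at Day 8 (29.2%) and 4 at Day 12 (35.2%). Day 12- 4 held 4 (31.0%), Day 12- 8 held 2 (37.8%) and Day 12- 12 held 5 (31.0%). With full lists and with lists of equal length, the share of the 7 genes was above that of protein-coding genes in 5 libraries. The Day 12- 8 counts were near the background. At Day 0 the share was below, but the cut left that list, the shortest, unchanged, so it was no further check there. With lists of equal length Itgad, Itgal and Itgb2 had a Day 12 site without one at Day 0, 3 of the 7, as did 14.8% of protein-coding genes. When a score of 20 or more was required, the genes with a site were 1, 7, 6 and 6 at Days 0, 4, 8 and 12, against 7.80, 45.9, 40.1 and 56.8% of protein-coding genes. In the titled libraries they were 2, 0 and 5, against 12.7, 15.6 and 30.1%. The single gene at Day 0, 14.3% of the 7, then lay above the background share of 7.80%, the reverse of the full list. At that score 5 of the 7 had a site at Day 12 without one at Day 0, against 49.1%.

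**Figure D1:**
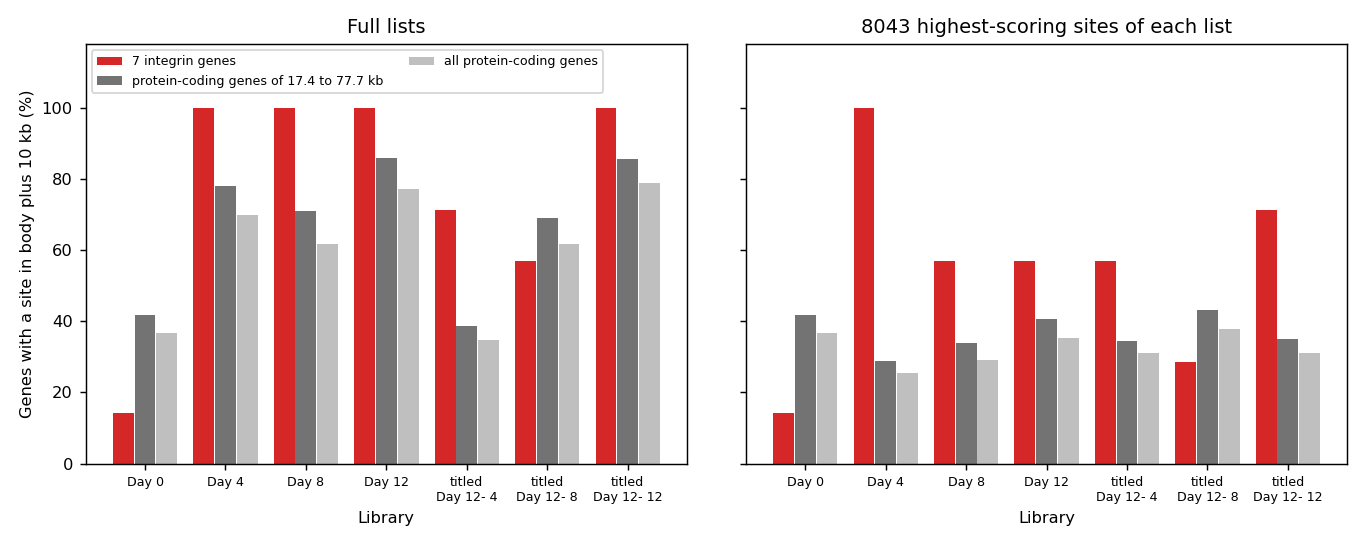
Percentage of genes with a called site in the body plus 10 kb (vertical axis) in each library (horizontal axis), with the full lists on the left and lists of 8043 sites on the right. Red bars are the 7 integrin genes, dark grey bars protein-coding genes of 17.4 to 77.7 kb and light grey bars all protein-coding genes. The red bars lie below both grey bars at Day 0 and above them in 5 libraries, and in Day 12- 8 they stand for 4 and 2 of 7 genes, counts near the background. The Day 0 bars are the same on both sides, since that full list holds 8043 sites.

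Site density takes window length into account. At Day 4 the windows held 11.7 summits per 100 kb, against 3.18 over the windows of all protein-coding genes, a ratio of 3.69. The ratio was 2.91 at Day 8, 2.56 at Day 12, 3.61 in the library titled Day 12- 4 and 2.30 in Day 12- 12. At Day 0 it was 0.429, from a single summit, and in Day 12- 8 it was 1.05, from 6 summits. In the other 5 libraries the ratio stayed above 1 with a score of at least 20 and with lists of equal length. At Day 0 and in Day 12- 8 it depended on the score minimum: with a score of at least 20 it was 2.68 at Day 0, from the same single summit, and 0 in Day 12- 8, which had no such summit in the windows. These ratios pool genes that differed. At Day 12 the summits per 100 kb were 32.5 for Itgb2, 22.0 for Itgal, 21.4 for Itgb7, 13.6 for Itgad and 9.23 for Itgam. They were 4.86 for Itgax and 1.02 for Itga4, below the 5.35 over all windows.

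**Figure D2:**
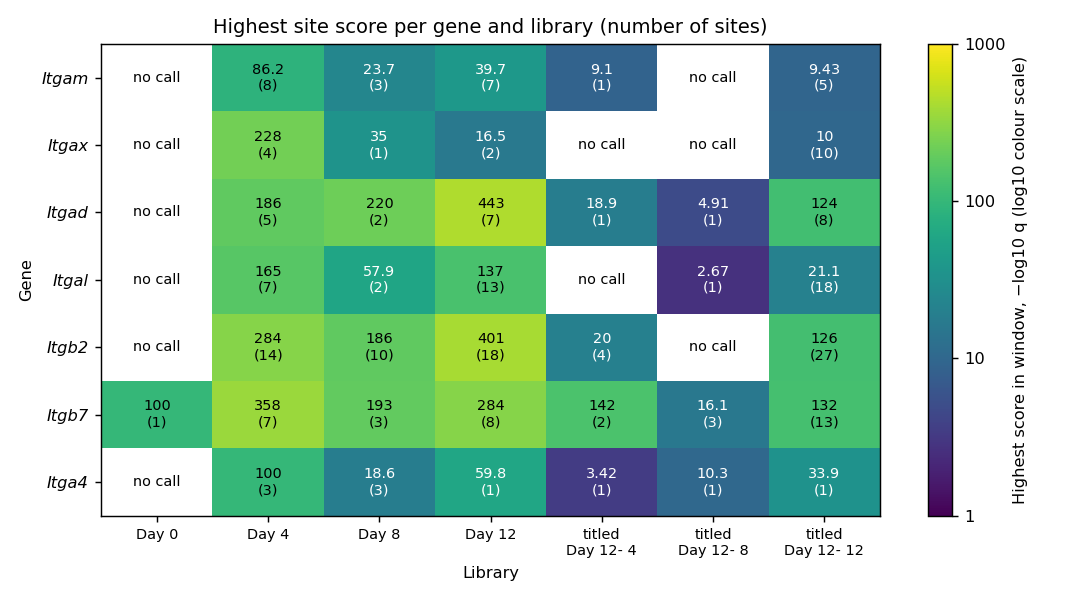
Highest score of any site in the window of each gene (rows) in each library (columns), with the number of sites in brackets. Colour shows the score on a log10 scale, and white cells are libraries with no call. The Day 0 column is white but for Itgb7, and the library titled Day 12- 8 holds no score above the 16.1 of Itgb7.

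Itgb2, the shared beta chain (chromosome 10, 77530329 to 77565708), carried the most sites, 39 of the 137. It had none at Day 0, then 14, 10 and 18 at Days 4, 8 and 12. In the titled libraries it had 4 in Day 12- 4, 0 in Day 12- 8 and 27 in Day 12- 12. Its highest scores on Dox were 284, 186 and 401. In the same libraries 3.07, 4.30 and 5.72% of protein-coding genes scored at least as high. The nearest protein-coding gene for 3 of the sites was Fam207a and not Itgb2.

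Itgb2 held 4 of the 7 sites of the family that were called in at least 5 libraries, and all 4 were called at Days 4, 8 and 12 and in the libraries titled Day 12- 4 and Day 12- 12. The first lay at the lower-coordinate end of the gene (77530328 to 77530354), with summits of 5 libraries within 26 bp of each other. Its scores were 284, 186 and 343 at Days 4, 8 and 12, then 20.03 in Day 12- 4 and 126 in Day 12- 12. The second lay 0.809 kb inside that end (77531106 to 77531171) and scored 217, 46.8 and 74.1 at Days 4, 8 and 12. The others lay 18.5 kb and 20.8 kb inside, at 77548796 to 77548862 and 77551110 to 77551163. They scored 93.6 and 71.2 at Day 4, 54.6 and 95.3 at Day 8, and 401 and 273 at Day 12.

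The order of these sites within a library differed between days. At Day 4 the sites at the lower-coordinate end and 0.809 kb inside it ranked first and second of the gene, above both deep sites. At Day 12 the site 18.5 kb inside ranked first, above the one at the lower-coordinate end, and the site 0.809 kb inside ranked below both deep ones. In Day 12- 12 the site at the lower-coordinate end scored 126 and the deep sites 122 and 117, with 33.6 for the site 0.809 kb inside. A further site 6.65 kb inside (77536920 to 77537033) scored 205, 68.3 and 314 at Days 4, 8 and 12. It was called in no library titled knockdown, although a Day 12- 12 summit of score 11.4 lay 144 bp away. Such orders compare sites under the same depth and control, but with 1 library a day their spread between cultures is unknown.

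**Figure D3:**
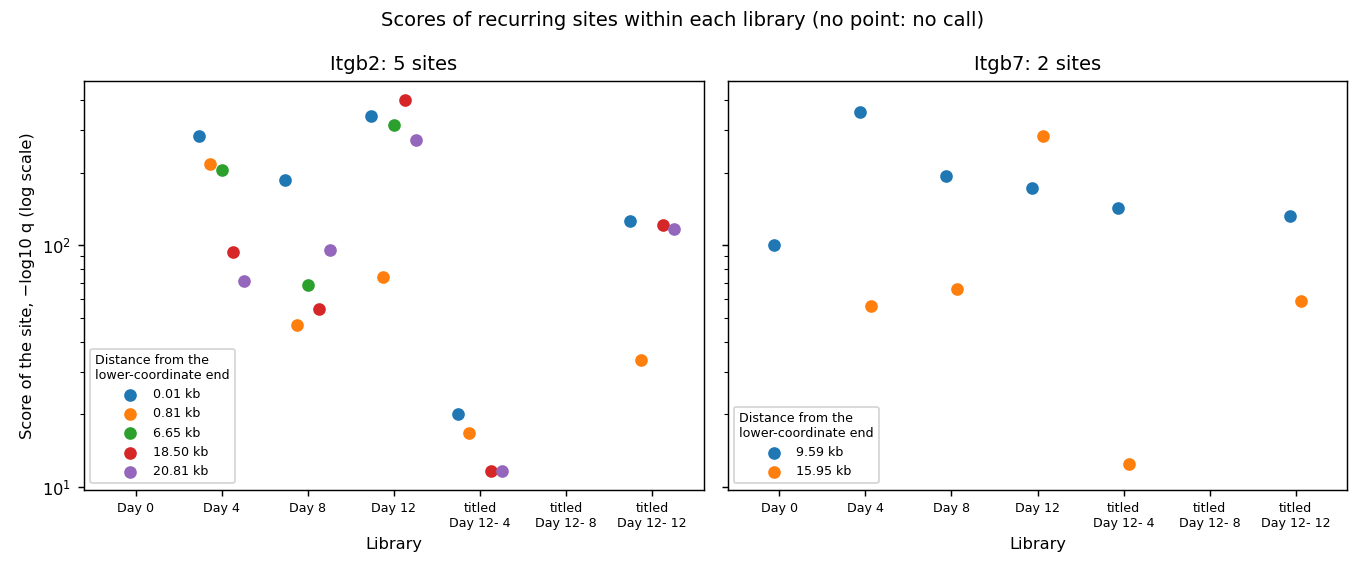
Scores of recurring sites (vertical axis, −log10 q, log scale) in each library (horizontal axis) for Itgb2 on the left and Itgb7 on the right, with colours giving the distance of the site from the lower-coordinate end of the gene. At Itgb2 the sites 18.5 and 20.8 kb inside lie below the site at the lower-coordinate end at Day 4, and the first of them lies above it at Day 12. At Itgb7 the site 9.59 kb inside lies above the promoter site in every library that called both except Day 12.

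Itgb7 (chromosome 15, 102215994 to 102233405) was the gene with a Day 0 call. That site, 9.59 kb from the lower-coordinate end and inside the gene (102225572 to 102225592), was called in 6 libraries with summits within 20 bp. Its scores at Days 0, 4, 8 and 12 were 100.5, 358, 193 and 173, followed by 142 in Day 12- 4 and 132 in Day 12- 12. At Day 0 it ranked 165 of 8043 sites, and 1.04% of protein-coding genes had a highest score at least as high. Only Day 12- 8 lacked it, and a summit of that library with a score of 9.12 lay 168 bp away (102225760). The promoter site described above was called in 5 libraries and not at Day 0 or in Day 12- 8. Its scores at Days 4, 8 and 12 were 56.2, 65.8 and 284, followed by 12.4 in Day 12- 4 and 58.7 in Day 12- 12. The internal site thus scored above the promoter site at Days 4 and 8 and in both titled libraries, and below it at Day 12.

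Itgb7 lies between close neighbours, and of its 23 sites 9 were nearest to Rarg and 3 to Zfp740. Among the latter, the pair at 102207973 to 102208007 and 102208114 to 102208133 lay 107 bp apart. The first was called at Day 12 (65.9) and in Day 12- 12 (16.5) and the second at Day 4 (72.9) and Day 8 (34.6). They count as separate sites at 100 bp, so a shift of summits between libraries can look like a change of site.

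The alpha chains of myeloid cells, Itgam, Itgax and Itgad, lie next to each other on chromosome 7, and none had a Day 0 call. Of the 3, Itgax (128129526 to 128150657) had the highest score at Day 4 and Itgad (128173933 to 128205504) at Day 8, Day 12 and in Day 12- 12. At Day 4 the highest scores were 228 for Itgax, 186 for Itgad and 86.2 for Itgam. At Day 12 they were 16.5, 443 and 39.7 in the same order.

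The Itgad score came from a site 6.35 kb inside the gene (128180260 to 128180310), called in 5 libraries. Its scores at Days 4, 8 and 12 were 186, 220 and 443, followed by 18.9 in Day 12- 4 and 124 in Day 12- 12. At Day 12, 4.36% of protein-coding genes had a score at least as high as Itgad. A second Itgad site 7.93 kb inside (128181845 to 128181876) scored 18.6 at Day 8 and 57.4 at Day 12. The other 14 Itgad sites scored at most 15.9.

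The Itgax score came from a site 4.30 kb inside the gene (128133790 to 128133861), called at Days 4, 8 and 12 with scores of 228, 35.0 and 16.5. It was the only one of the 15 Itgax sites called in more than 1 library. Among protein-coding genes, 4.99% reached the Itgax score at Day 4, 30.0% at Day 8 and 59.0% at Day 12. Itgax therefore stood high in the Day 4 library and below the middle at Day 12. Of genes of similar length, 5.98% reached its score at Day 4 and 68.4% at Day 12. In Day 12- 12 it had 10 sites, all called in that library alone, with scores up to 10.0, and the libraries titled Day 12- 4 and Day 12- 8 had no call.

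Itgam (128062640 to 128118491) had 14 sites, of which 8 were called in 1 library. Its highest Day 12 site, 52.8 kb from the lower-coordinate end (128115469), scored 39.7, and 47.4% of protein-coding genes reached that score at Day 12. The Day 4 list had a summit 192 bp from it, at 21.3. At Day 4 the highest Itgam site lay 3.14 kb inside the gene (128065751 to 128065801) and was named here after its values were seen. Its scores on Days 4, 8 and 12 were 86.2, 23.7 and 18.3. It was also the sole Itgam call in the library titled Day 12- 4, labelled as Cd11b-high, where it scored 9.10 and ranked 5038 of 9868 sites. In Day 12- 12 Itgam had 5 sites with scores from 1.46 to 9.43. Of the beta-2 alpha chains, Itgam had the lowest highest score at Day 4 and Day 8.

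Itgal (chromosome 7, 127296139 to 127335137), the alpha chain of LFA-1, lies 727.5 kb from Itgam and had 25 sites. Its highest-scoring site lay 0.189 kb inside the lower-coordinate end (127296284 to 127296373). It scored 165, 57.9 and 137 at Days 4, 8 and 12 and 21.1 in Day 12- 12, and the other libraries did not call it. At Day 12 Itgal had 13 sites, of which 2 scored at least 20, and in Day 12- 12 it had 18, of which 2 did. Of the 25 sites, 4 lay nearest to Zfp768, among them the single call of Day 12- 8, which scored 2.67.

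Itga4 (chromosome 2, 79255426 to 79333114) was the longest of the 7 genes, at 77.7 kb, and had the fewest sites, 5. All lay between 1.98 kb outside and 0.612 kb inside its lower-coordinate end, which is the annotated start. No library had a call in the rest of the body or at the other end, including the list of 148415 sites. At Day 12 the window held 1.02 summits per 100 kb, against 32.5 for Itgb2 and 5.35 over protein-coding windows. Of the 5 sites, 4 were called in more than 1 library. The site 0.564 kb outside the gene scored 100.002 at Day 4 and 18.6 at Day 8, with summits 22 bp apart. The site 0.612 kb inside scored 11.4 at Day 4, 5.94 at Day 8 and 33.9 in Day 12- 12, with summits within 24 bp. The site called at Day 12 (59.8) and in Day 12- 4 (3.42) spanned 100 bp.

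**Figure D4:**
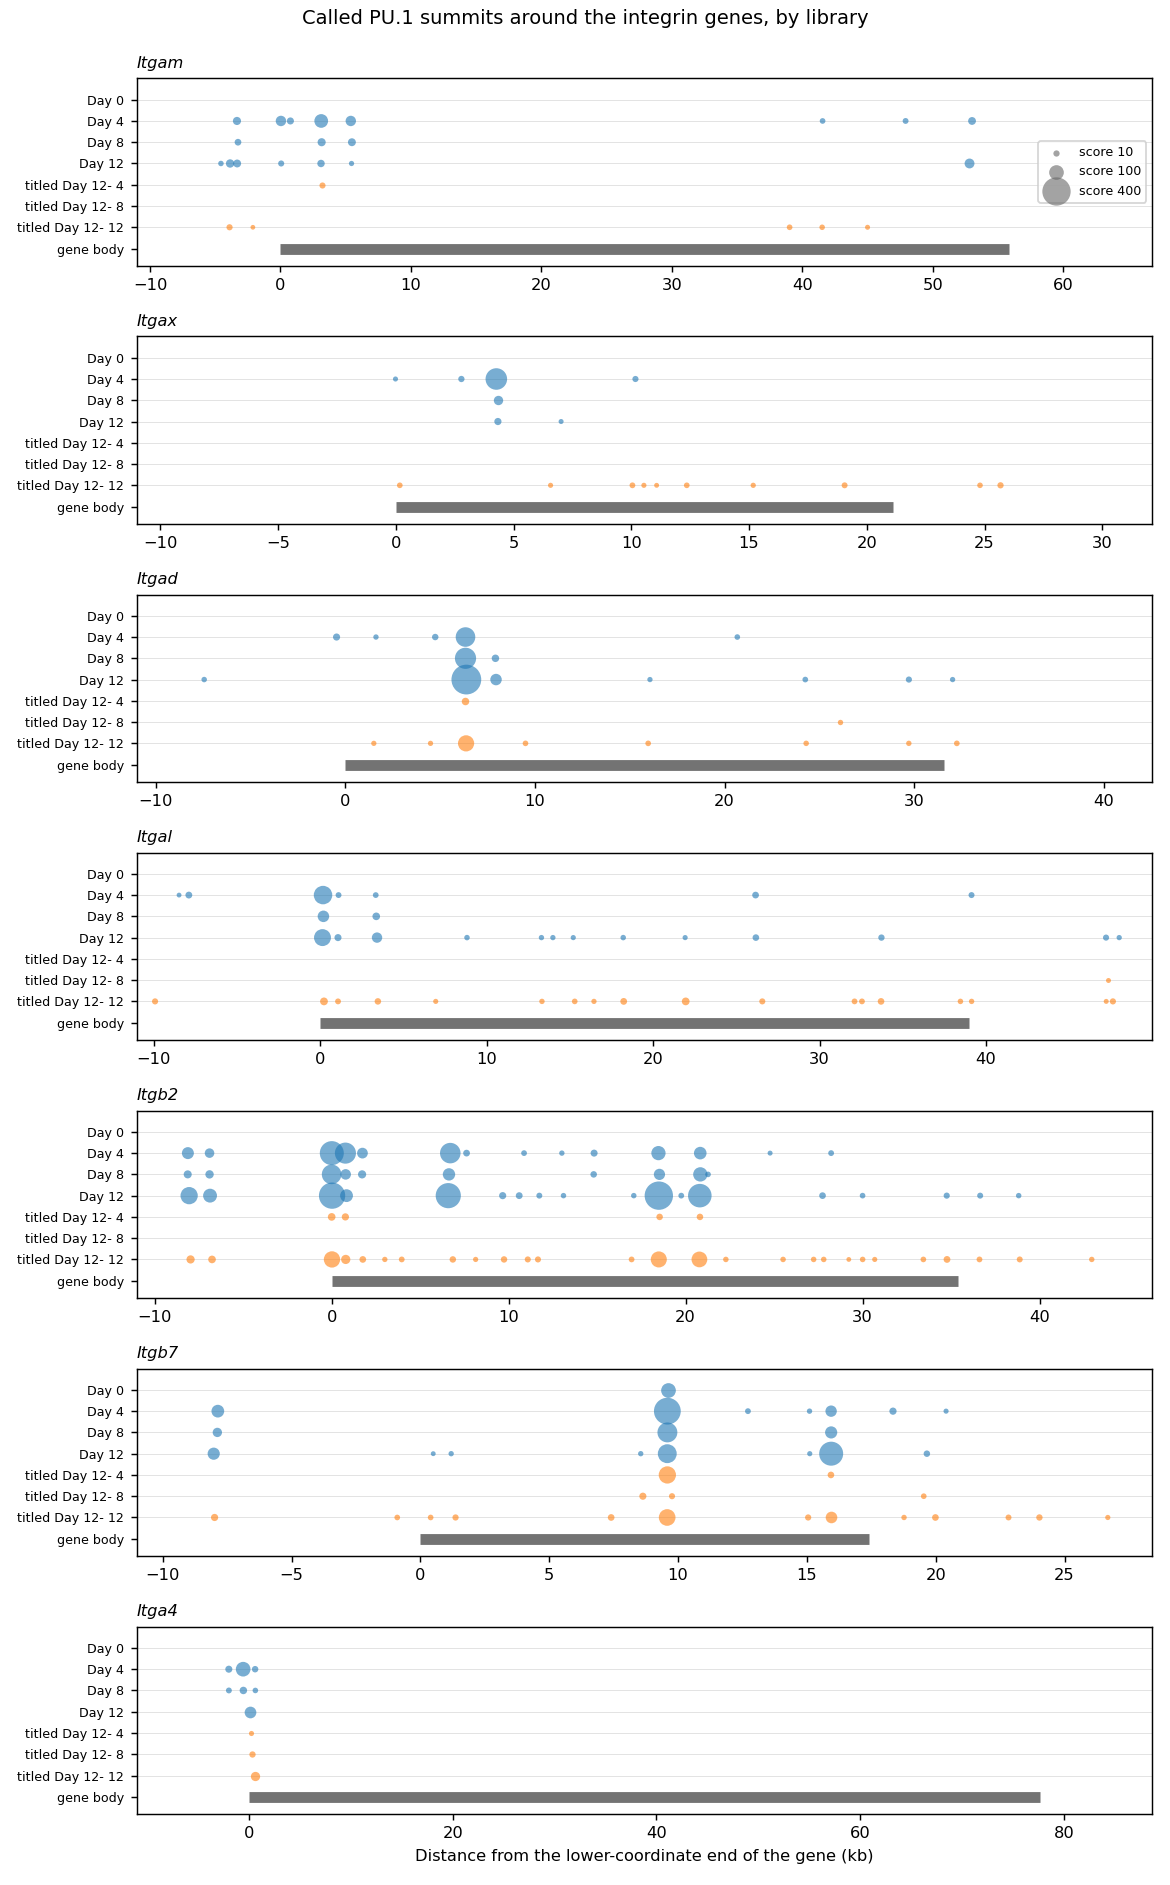
Summits around each gene, as distance in kb from the lower-coordinate end of the gene (horizontal axis), with a row per library and the gene body as a grey bar. Blue points are restoration libraries, orange points libraries titled knockdown, and point area rises with score. Itgb2 shows columns of points at 0.012, 0.809, 18.5 and 20.8 kb, Itgad a column at 6.35 kb and Itgb7 columns at 9.59 and 15.9 kb, while all Itga4 points lie at the lower-coordinate end.

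Of the 137 sites, 87 (63.5%) were called in 1 library, against 73.0% of all sites in the series. Sites called in at least 5 libraries numbered 7 (5.11%, against 2.72%), and none was called in all 7. The library titled Day 12- 12 was the sole caller of 48 sites (35.0%), a smaller share than the 41.5% of the series. Calls at Day 12 without a Day 0 call numbered 55 (40.1%, against 33.7%). Of the 137 sites, 8 were such calls shared with the library titled Day 12- 4 (5.84%, against 2.42%), 1 with Day 12- 8 (0.73%, against 2.25%) and 29 with Day 12- 12 (21.2%, against 15.8%). A further 23 were in none of the 3, a share near that of the series (16.8%, against 16.7%). Sites called in a restoration library and in no library titled knockdown numbered 47 (34.3%, against 32.8%), also a share near that of the series. That count was 74 without the library titled Day 12- 12 and 25 with merging at 500 bp.

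The titled libraries differed in which of these sites they called. All 9 sites of Day 12- 4 were also called at Day 12, where 76.8% of that library's sites were. They were 4 sites of Itgb2, 2 of Itgb7 and 1 each of Itgam, Itgad and Itga4. The Itga4 summit of Day 12- 4, with a score of 3.42, lay 100 bp from the Day 12 summit, at the merging limit itself. Of the 6 sites of Day 12- 8, 1 was also called at Day 12, where 37.2% of that library's sites were. None was called at Day 4, Day 8, in Day 12- 4 or in Day 12- 12, where 12.8, 23.9, 15.5 and 29.3% of that library's sites were. These counts depend on the merging limit of 100 bp, since 4 of the 5 unshared summits lay 111 to 168 bp from a summit of another library. These 6 were 3 of Itgb7 and 1 each of Itgad, Itgal and Itga4, with scores from 2.67 to 16.1. Of the 82 sites of Day 12- 12, 30 (36.6%) were called at Day 12, against 27.7% of its full list. The counts for Day 12- 4 and Day 12- 8 are small.

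The other 19 integrin subunit genes include chains of platelets, epithelia and connective tissue. They also include Itgb1, whose beta-1 chain pairs with alpha-4, so they are not a set without leukocyte chains. Of the 19, 9 had a site at Day 0 and 17, 15 and 18 at Days 4, 8 and 12. These were 47.4, 89.5, 78.9 and 94.7%, against 36.8, 69.8, 61.7 and 77.1% of protein-coding genes. Some were longer than any of the 7 leukocyte integrin genes, up to 294.3 kb for Itga9, and these shares were not matched for length. With lists of equal length the 7, 4 and 4 of 7 leukocyte integrin genes given above stood against 9, 7 and 5 of these 19 at Days 4, 8 and 12. The latter were 47.4, 36.8 and 26.3%, against 25.5, 29.2 and 35.2% of protein-coding genes. With uncalled genes at 0, the median highest score at Day 12 was 137 for the 7 leukocyte integrin genes and 25.2 for the other subunits, against 33.4 for all protein-coding genes. At Day 4 the medians were 186, 55.9 and 15.6. Itgav, the alpha chain of vitronectin receptors, had the highest Day 12 score of the other subunits, 507, and scored 411 at Day 0. Itgb3, its partner and a platelet chain, had no Day 0 call and scored 357 at Day 12. The Day 12 sites behind Itga10 (314) and Itgb4 (200.4) lay outside those genes and nearer to Ankrd35 and Sap30bp.

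Genes of integrin activation and signalling, which link the beta tail to actin and to Rap1 or Src-family and Syk kinases, were called at Day 0 for 11 of 18. All 18 had a site at Days 4, 8 and 12, and 15, 16 and 18 did in Day 12- 4, Day 12- 8 and Day 12- 12. Among protein-coding genes the shares were 36.8, 69.8, 61.7 and 77.1% at Days 0, 4, 8 and 12. In the titled libraries they were 34.8, 61.8 and 78.9%. With uncalled genes at 0, the median highest score of the 18 was 326 at Day 12 and 223 at Day 4. Both lay above the medians of the 7 leukocyte integrin genes, 137 and 186. With lists of equal length 72.2, 83.3 and 77.8% of the 18 had a site at Days 4, 8 and 12. The leukocyte integrin genes stood at 100, 57.1 and 57.1%. Several of the 18, such as Skap2 at 153.4 kb, were longer than any leukocyte integrin gene, and these shares were not matched for length. The highest at Day 12 were Apbb1ip, the Rap1 effector RIAM, at 717, Vav1, a guanine nucleotide exchange factor, at 681, Rassf5, another Rap1 effector, at 528, and Lyn, a Src-family kinase, at 449. Their Day 0 scores were 6.30, 61.3, 3.99 and 5.23. The library titled Day 12- 8 called all 4, at 73.5, 216, 13.2 and 69.5, but they were picked for their Day 12 scores. Of the leukocyte integrin genes that library called Itgad, Itgal, Itgb7 and Itga4 and not Itgam, Itgax or Itgb2.

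Genes for ligands of these integrins were called for 5 of 15 at Day 0 and for 13, 12 and 11 at Days 4, 8 and 12. These were 33.3, 86.7, 80.0 and 73.3%, against 36.8, 69.8, 61.7 and 77.1% of protein-coding genes. The share was thus near that of protein-coding genes at Day 0 and at Day 12. Icam1, a ligand of LFA-1 and Mac-1, had the highest Day 12 score, 517, with 11.04 at Day 0. The sites behind C3 (444), the complement protein, and Fgb (188), the fibrinogen beta chain, lay nearer to Tnfsf14 and Plrg1. Icam4 scored 124. Of 8 other adhesion receptor genes 5 had a site at Day 12 (62.5%, against 77.1%) and 1 at Day 0 (12.5%, against 36.8%). They were led at Day 12 by Selplg, the selectin ligand PSGL-1, at 422, from a site nearer to Coro1c. Pecam1, the adhesion molecule CD31, scored 154, Spn, the sialoglycoprotein CD43, 147, and Cd47, which signals to phagocytes, 72.5.

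Genes whose highest scores over the 7 libraries lay nearest to those of Itgb2, by Euclidean distance in log2(score + 1), were Adgrg3 (0.534), Dhrs9 (0.654) and E030018B13Rik (0.707), where the median of 18945 genes was 9.25. Adgrg3 scored 222, 159 and 448 at Days 4, 8 and 12, and like Itgb2 had no call at Day 0 or in Day 12- 8. For Itgam the nearest were Acta2 (0.817), Vipas39 (0.873) and Retn (0.873), where the median was 6.95. The 7 values of a gene share libraries and depths with those of every other gene.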

How the data were processed

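PU.1 ChIP-seq lists of 7 libraries were analysed, each a deposited list of peak summits with 1 position and 1 score per called peak. The submitters' processing notes name MACS2 and the build mm10. The deposited score was read as −log10 of the q-value, since the lowest score was 1.30104 and −log10 of a q of 0.05 is 1.30103. Its version, the aligner, control library, filters, depth and pooling are not given in the sources used here.

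Libraries were grouped by title. Tables were made in Python 3.11.15 (pandas 2.3.3, numpy 2.4.6), figures with matplotlib 3.10.9. Summits were merged across libraries by single linkage at 100 bp, checked on simulated sites. Genes came from the RefSeq table for GRCm38.p6, which gives no strand or exons. Strand and start came from the RefSeq promoter table where it held the gene. No site was placed in an exon or intron. Background shares were taken over 21887 protein-coding genes outside the mitochondrial genome. The length range was that of the 7 genes.

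The genes, lists and windows were chosen with earlier results of these data known. Named sites were the highest at Day 12 for each gene, those called in at least 5 libraries and those called at Day 0, and named list genes were the 4 highest at Day 12. Other sites were named after their values were seen. Alternatives were windows of 1 and 50 kb, score minimums of 10 and 20, lists of 8043 sites, merging at 50 and 500 bp, withdrawal by treatment label, and leaving out the library titled Day 12- 12.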

Additional observations from a re-analysis of the deposited data

How the results depend on the processing

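Counts of genes with a site kept within 1.5 times their value with a window of 1 kb, and so did the 3 counts of sites. With 50 kb, 4 genes had a Day 0 site in place of 1, and the windows held 285 sites, of which 114 were called at Day 12 and not Day 0 and 96 in restoration libraries alone. With a score of at least 10 the genes with a site were 3 in the library titled Day 12- 4 and 2 in Day 12- 8, and the 3 site counts were 54, 26 and 28. With at least 20 they were 2 and 0 genes, and 28, 17 and 17 sites. With lists of 8043 sites they were 4 genes at Day 8, 4 at Day 12 and 2 in Day 12- 8, and 21, 9 and 5 sites. Merging at 50 bp moved none of the 3 site counts by over 1.5 times. At 500 bp, 25 sites were called in restoration libraries alone in place of 47, and without the library titled Day 12- 12 there were 74. Fewer sites are counted under a higher minimum or a shorter list by construction. The reading by treatment label left that count within 1.5 times. No paired analysis was possible because each group held 1 library. Depth was unknown, so a missing call in a short list, such as Day 0, could not be told apart from low depth.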
